A study of Caenorhabditis elegans with 2 samples.

Results

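The regions described here are the tRNA genes on the 5 autosomes of the nematode Caenorhabditis elegans. They were taken by biotype and chromosome from the RefSeq annotation of the WBcel235 assembly (ce11), with no measured value in the choice, and number 336 of the 612 tRNA genes of the nuclear genome. The other 276 lie on X and serve as a comparison, as do 180 autosomal tRNA pseudogenes. For each gene the strongest peak within 200 bp was taken from each of 4 peak lists. Nearly all peaks in these lists have a fixed width of 420 to 436 bp, so a gene counted as having a pooled peak could lie up to 415 bp from its summit.

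The peaks come from a chromatin immunoprecipitation and sequencing (ChIP-seq) experiment on the protein DAO-5, in which an anti-GFP antibody was used. The antibody label of both samples reads dao-5. All animals were hermaphrodites at the L4 or young adult stage of strain OP252, a transgenic line in which DAO-5 carries GFP and FLAG at its C terminus. Chromatin was prepared from whole animals, so tissues and cell types are not separated, and an untagged strain was not analysed here. There is 1 group with 2 biological replicates from the same line, so no condition is compared and no test was run. The lists hold 23091 peaks for replicate 1, 21273 for replicate 2, 16687 for the pooled reads and fewer for the thresholded list, which holds the pooled peaks with a signal of 51.8 or more. The strongest peaks of a replicate, as many as the thresholded list holds, are called its top peaks. Signal is the authors' value for each peak, and its scaling is not stated. It was used to rank peaks within a list, and values from different lists are set side by side without a fold between them, because the pooled list has a higher scale (median 21.33) than the lists of replicate 1 (11.53) and replicate 2 (10.95). Sequencing depth is unknown, and the 95% intervals on shares are exact (Clopper-Pearson) ones that cover counting error only. Neighbouring genes share peaks and many tRNA genes are identical, so genes are not independent observations.

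Transfer RNAs carry amino acids to the ribosome, and each isotype, the set of tRNAs for 1 amino acid, is encoded by many scattered genes. RNA polymerase III transcribes these short genes from promoter elements that lie inside the gene, the A box near its start and the B box near its end, and stops at a run of T residues after the gene. DAO-5 is related to Nopp140 of mammals, which resides in the nucleolus, where ribosomal RNA is made and many small RNAs are processed. In yeast, tRNA genes have been found gathered at the nucleolus.

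Sequences of 10 genes are shown to make clear how alike or unlike the genes with strong and with no peaks can be. They are the WBcel235 genome sequence in RefSeq, written from the first to the last base of the gene on its own strand, with the match to the B box letters GTTCGANNC in capitals where a gene holds one. The first 3 are the single-copy genes among the 12 strongest, on V, III and V. The next 4 each stand for a set of identical genes, and are the largest sets by autosomal copies that have no member on a chromosome whose sequences are not shown here, so some larger sets are missing. All 4 include both genes on thresholded peaks and genes that are not. The last 3 are among the genes that differ most from every other tRNA gene: the selenocysteine gene K11H12.t1 on IV, and T13B5.t2 on II and Y113G7B.t1 on V, which have no peak in any list.
F57F5.t1 (Ile): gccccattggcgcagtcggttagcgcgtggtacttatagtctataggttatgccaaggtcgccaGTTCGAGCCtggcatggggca
C14B9.t2 (Leu): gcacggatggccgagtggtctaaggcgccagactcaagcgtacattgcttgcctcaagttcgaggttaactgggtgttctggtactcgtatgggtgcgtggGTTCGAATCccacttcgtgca
F44A2.t1 (Ala): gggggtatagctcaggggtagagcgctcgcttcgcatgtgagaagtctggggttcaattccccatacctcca
T23F1.t2 (Pro): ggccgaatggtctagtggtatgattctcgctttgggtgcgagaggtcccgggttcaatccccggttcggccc
T23F1.t1 (Lys): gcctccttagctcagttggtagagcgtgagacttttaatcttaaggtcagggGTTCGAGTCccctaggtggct
C16C8.t2 (Thr): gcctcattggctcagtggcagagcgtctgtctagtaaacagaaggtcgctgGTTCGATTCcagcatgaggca
F15B9.t1 (Ala): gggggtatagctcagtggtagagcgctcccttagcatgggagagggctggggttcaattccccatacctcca
K11H12.t1 (Sec): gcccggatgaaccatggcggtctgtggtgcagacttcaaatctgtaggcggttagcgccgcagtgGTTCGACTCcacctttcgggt
T13B5.t2 (Thr): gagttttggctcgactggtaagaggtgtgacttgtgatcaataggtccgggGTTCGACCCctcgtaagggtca
Y113G7B.t1 (His): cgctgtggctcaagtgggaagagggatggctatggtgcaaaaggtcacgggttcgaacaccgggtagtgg

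The genes T23F1.t1 and T23F1.t2 lie 66 bp apart on V, face each other on opposite strands and share 1 peak, which is the reason for showing their locus. The stretch is chrV:15465042-15465341 in ce11 on the plus strand, with the lysine gene (bases 45 to 117) and the proline gene (bases 184 to 255, on the other strand) in capitals. The pooled summit is at base 56, inside the lysine gene and 11 bp from its first base. The replicate 1 summit is also inside the lysine gene. In replicate 2 the summit lies between the genes, 105 bp from the first base of each.
T23F1 locus: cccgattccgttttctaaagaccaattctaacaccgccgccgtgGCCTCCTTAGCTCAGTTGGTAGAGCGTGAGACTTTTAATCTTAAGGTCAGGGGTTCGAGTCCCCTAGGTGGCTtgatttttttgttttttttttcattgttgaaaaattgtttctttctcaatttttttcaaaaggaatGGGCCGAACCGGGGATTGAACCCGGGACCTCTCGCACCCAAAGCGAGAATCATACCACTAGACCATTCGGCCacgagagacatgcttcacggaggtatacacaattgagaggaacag

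Peaks were present at most autosomal tRNA genes. In the thresholded list 101 of 336 genes had a peak (30.06%, interval 25.2 to 35.27%), against 2.21% of the 46890 nuclear genes of all kinds in the annotation. In the pooled list 270 had a peak (80.36%, interval 75.7 to 84.47%), against 27.1% of all nuclear genes. The replicate lists gave 262 genes for replicate 1 and 266 for replicate 2, with 33.5% and 32.4% of all nuclear genes as the background. Both replicate lists held a peak at 237 genes (70.54%, interval 65.35 to 75.36%), against 21.6% of all nuclear genes. Starts of protein-coding genes had a thresholded peak in 0.8012% and a pooled peak in 18.7% of 19971 cases. The shares over all nuclear genes count peaks along the whole gene, and many genes are much longer than a tRNA gene. The starts are single positions and so closer in size to a tRNA gene.

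The tRNA genes on X had peaks at somewhat higher shares and levels. Of the autosomal genes 30.06% lay at a thresholded peak, and of the 276 X genes 37.32% (interval 31.6 to 43.32%). The median pooled signal over genes with a pooled peak was 43.22 on the autosomes (range 16.83 to 137.4) and 48.52 on X (range 17.12 to 158.4). Among the top peaks of both replicates were 41 autosomal genes (12.2%, interval 8.901 to 16.19%) and 59 X genes (21.38%, interval 16.69 to 26.69%), with 1.19% of all nuclear genes as the background. The intervals for the thresholded share overlap and those for the top peaks of both replicates do not, and the difference was not tested.

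The strongest peak at an autosomal tRNA gene lay at F57F5.t1, an isoleucine tRNA gene on V (12002176 to 12002260, outside protein-coding genes). Its signal was 61.28 in replicate 1, 76.71 in replicate 2 and 137.4 with the reads pooled, and it ranked 33 among all pooled peaks. This gene has no identical copy and differs by 2 bases from its closest relative, C02B4.t1. The lysine gene B0350.t1 on IV, from a set of 25 identical genes, followed with 102.1 pooled, 38.58 in replicate 1 and 59.98 in replicate 2. The peak shared by the lysine and proline genes T23F1.t1 and T23F1.t2, whose sequences are printed above, had 100.9 pooled, 45.26 in replicate 1 and 61.04 in replicate 2. The isoleucine gene T21B4.t1, in an intron of the collagen gene col-85 on II, had 96.38 pooled, 51.92 in replicate 1 and 50.65 in replicate 2.

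The other 7 of the 12 strongest genes belonged to 6 isotypes. The glutamate gene K02B12.t1, in an intron of zhp-3 on chromosome I, had 95.59 pooled, 47.86 in replicate 1 and 45.95 in replicate 2. The leucine gene C14B9.t2 on III, 122 bp long against a median of 72 bp, had 93.6 pooled, 45.2 in replicate 1 and 50.38 in replicate 2. The aspartate gene K02D7.t1 on IV overlaps an exon of grl-26 and had 89.94 pooled, 33.69 in replicate 1 and 56.29 in replicate 2. The arginine gene F35H8.t1 on II had 89.92 pooled, 40.25 in replicate 1 and 44.15 in replicate 2. The glycine genes K04C2.t1 and K04C2.t2, which lie in an intron of brd-1 on III and run away from each other, shared a peak of 85.6 pooled, 47.2 in replicate 1 and 33.87 in replicate 2. The alanine gene F44A2.t1 on V had 85.47 pooled, 39.65 in replicate 1 and 43.66 in replicate 2. All 12 were among the top peaks of both replicates.

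The replicates placed the genes in a partly similar order. Across the 237 genes with a peak in both lists, the replicate signals had a Spearman coefficient of 0.4662, which is across genes that share libraries and, in part, peaks. There were 25 genes in the replicate 1 list alone and 29 in the replicate 2 list alone. Of the 101 genes on a thresholded peak, 41 were at top peaks of both replicates, 39 in replicate 2 only, 16 in replicate 1 only and 5 in neither. A thresholded peak at a tRNA gene therefore rests on a high rank in both replicates for 41 genes, while 39 depend on replicate 2 for that rank. With the top peaks of replicate 1 in place of the thresholded list the count was 68, and with those of replicate 2 it was 92.

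**Figure D1:**
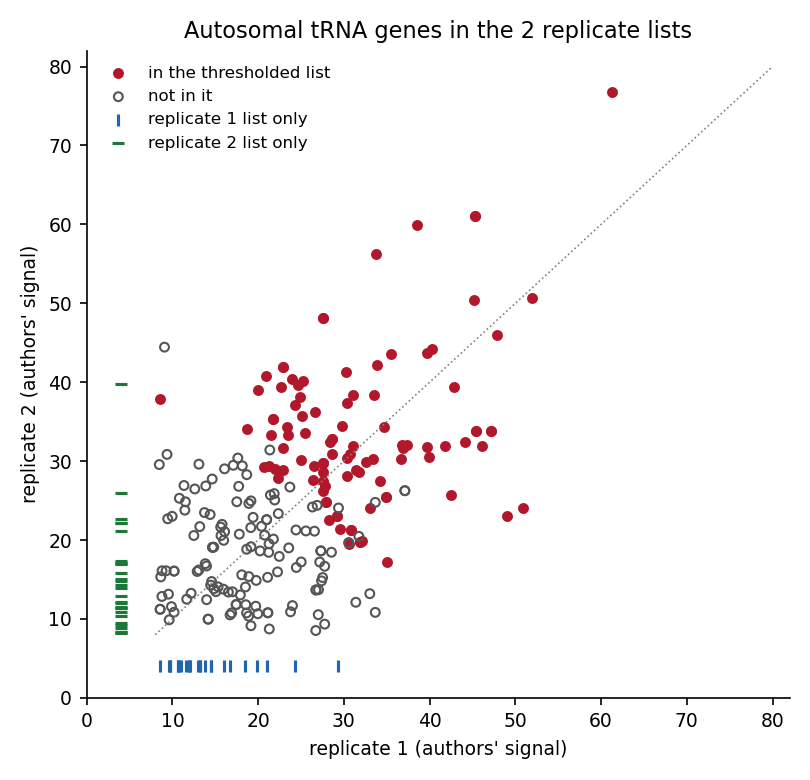
Authors' signal of the strongest peak within 200 bp of each autosomal tRNA gene in replicate 1 (x axis) and replicate 2 (y axis). Each point is 1 of the 237 genes in both lists (filled: 101 genes of the thresholded list; open: others), ticks near the axes mark the 25 and 29 genes listed in 1 replicate only, and the dotted line marks equal values, which need not mean equal binding if the lists differ in scale; F57F5.t1 stands alone at the top right.

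At 4 genes the ranks differed most between replicates. The threonine gene Y97E10C.t1 on V had a signal of 8.471 in replicate 1, near the bottom of that list, and 29.56 in replicate 2. The cysteine gene T28C12.t1 on V had 8.533 in replicate 1 and 37.83 in replicate 2, and yet a thresholded peak of 56.77. The lysine gene M01E5.t1 on chromosome I had 9.077 in replicate 1 and 44.44 in replicate 2. The leucine gene T19C4.t1 on V went the other way, with 26.72 in replicate 1 and 8.531 in replicate 2. The edge of the thresholded list fell among genes of nearly equal signal. Just inside it were W06D4.t1 (Asn, pooled signal 52.26), F56F4.t2 (Lys, 51.89) and Y104H12A.t1 (Glu, 51.8), and just outside it T03E6.t1 (Gln, 51.42), ZK507.t1 (Asn, 51.29) and B0244.t1 (Gly, 51.16).

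Genes of 20 isotypes, those of all standard amino acids, had at least 1 thresholded peak. Shares ran from 5 of 6 cysteine genes (83.33%, interval 35.88 to 99.58%) to 1 of 14 asparagine genes (7.143%, interval 0.1807 to 33.87%). Between these, arginine had 8 of 17, glutamate 8 of 18, glycine 15 of 35 and lysine 12 of 28, while proline had 2 of 22, phenylalanine 1 of 8 and tryptophan 1 of 7. Median pooled signals ran from 55.95 for cysteine, 54.2 for isoleucine and 53.18 for lysine to 32.55 for phenylalanine and 29.99 for asparagine. The intervals of most isotypes overlap, since each has 35 genes or fewer.

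The order of isotypes depended on the replicate. At the top peaks of replicate 1 were 1 of the 6 cysteine genes, 2 of the 17 arginine genes, 7 of the 28 lysine genes, 3 of the 20 threonine genes and 1 of the 21 serine genes. Those of replicate 2 held 5 cysteine, 8 arginine, 16 lysine, 10 threonine and 5 serine genes. Glycine went the other way, with 14 of 35 genes in replicate 1 and 8 in replicate 2, as did glutamate with 5 and 3 of 18. Asparagine was low in both, with 1 and 0 of 14 genes, and methionine had 4 of 12 in both.

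**Figure D2:**
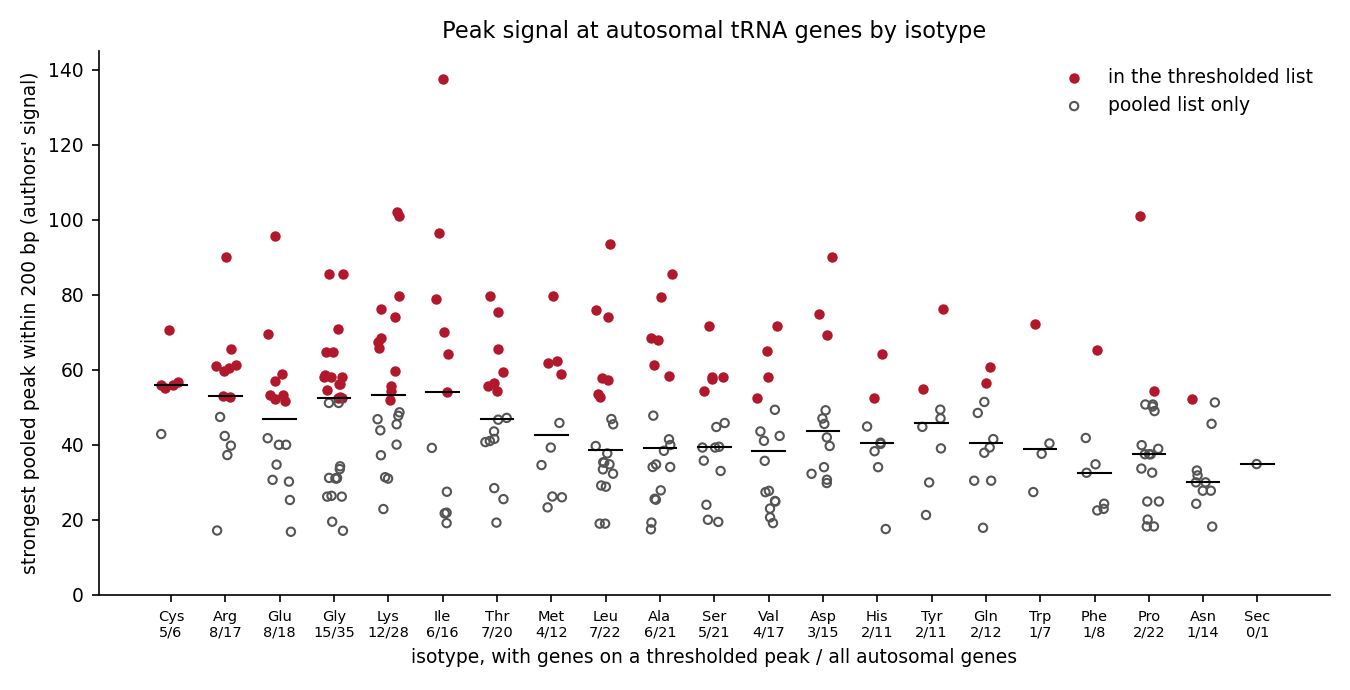
Authors' pooled signal (y axis) of the strongest peak within 200 bp of each autosomal tRNA gene, by isotype (x axis, ordered by the share of genes on a thresholded peak, with that number and the number of genes below each name). Filled points are genes of the thresholded list, open points genes in the pooled list only, and lines are medians; every isotype but Sec has genes above and below the edge at 51.8, and the 66 genes with no pooled peak are not drawn.

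Proline had 100.9 at T23F1.t2, a peak shared with the lysine gene T23F1.t1. Its pooled summit lay inside the lysine gene, 199 bp from the first base of T23F1.t2, and its replicate 2 summit lay between the genes. The next proline gene, F02H6.t1, had 54.42, and the other proline genes with a pooled peak lay below 51.8. Tryptophan had 72.15 at sup-5 on III, a gene known for suppressor mutations that read the amber stop codon, with 30.26 in replicate 1 and 41.25 in replicate 2. Of the other named tryptophan genes, all identical to sup-5, rtw-6 had 40.37 pooled, sup-24 had 27.41 pooled with 22.6 in replicate 2 and none in replicate 1, and sup-29 had no peak in any list. The glutamate genes rte-4 (57.05 pooled) and rte-2 (52.3 pooled) were on thresholded peaks. The strongest genes of the remaining isotypes were F53F8.t1 for cysteine (70.46), T15B12.t1 for methionine (79.74), C16C8.t2 for threonine (79.67), T22F7.t1 for tyrosine (76.27), Y73B6BL.t1 for valine (71.7), ZC455.t1 for serine (71.68), Y39B6A.t9 for phenylalanine (65.33), Y65A5A.t4 for histidine (64.14) and B0228.t1 for glutamine (60.75). The peak at C16C8.t2 is shared with the lysine gene C16C8.t1, and its pooled summit lay 94 bp upstream of C16C8.t2, nearer to C16C8.t1. The next threonine gene, F52C9.t1, had 75.52. The selenocysteine gene K11H12.t1 on IV, whose tRNA reads UGA codons in selenoprotein messages, had 34.87 pooled, 21.1 in replicate 1 and 15.27 in replicate 2. It lay below the edge of the thresholded list.

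Summits lay in the tRNA genes or close to them. In the thresholded list the median summit position was 7 bp downstream of the first base of the gene, with quartiles at -21 and 42 bp. Of 101 genes 41 had the summit inside the gene, 42 upstream and 18 downstream, and 86 (85.15%) had it inside the gene or within 50 bp of it. Among the 62 genes on a thresholded peak with no other tRNA gene within 1000 bp, 59 (95.16%) had it there. In the pooled list the median was 14.5 bp and the share within 50 bp 74.81%, in replicate 1 the median was 13.5 bp and in replicate 2 it was 8 bp. A snoRNA, snRNA, rRNA or miRNA gene lay within 415 bp of only 2 of the 336 genes. On the top peaks the median was 7.5 bp without replicate 1 and 9 bp without replicate 2.

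**Figure D3:**
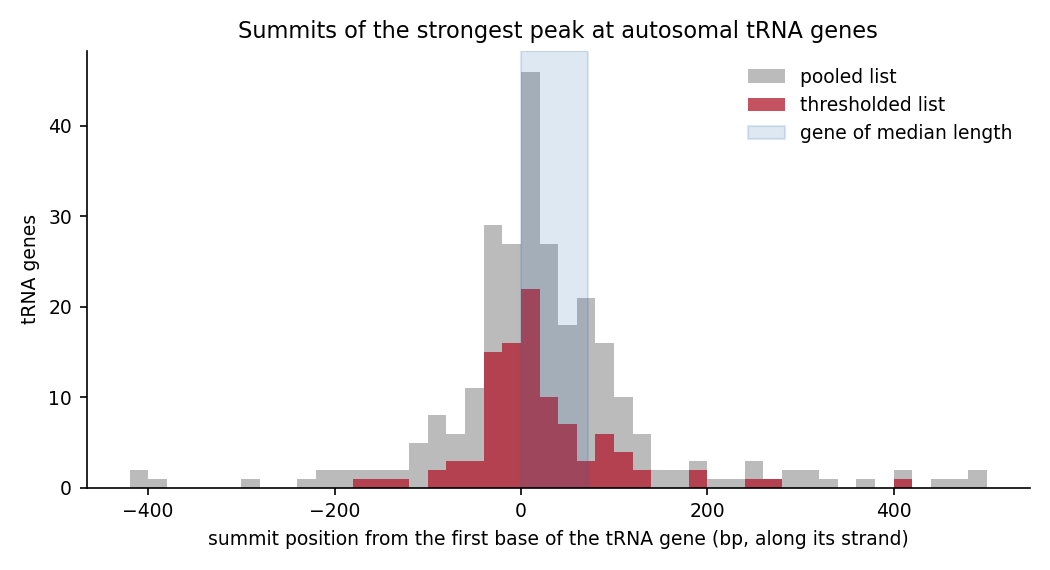
Position of the peak summit along the strand of the tRNA gene (x axis, bp from the first base of the gene, bins of 20 bp) against the number of autosomal tRNA genes (y axis) for the pooled list (grey, 270 genes) and the thresholded list (red, 101 genes). The shaded band is a gene of the median length of 72 bp; the counts pile up at the start of the gene in both lists.

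Neighbouring genes often shared a peak. The 101 genes in the thresholded list lay on 89 peaks, of which 12 were shared by 2 genes each. Of these pairs 5 ran on the same strand, 5 ran away from each other and 2 faced each other, as at T23F1. In the pooled list 270 genes lay on 242 peaks, 28 of them shared.

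Genes of identical sequence had unlike peak signals. The 336 genes have 137 distinct sequences, and 43 sets have at least 2 identical autosomal copies, 242 genes in all. Of the 19 sets with at least 6 autosomal copies, 17 held both genes on a thresholded peak and genes off it. Over the copies of a set with a pooled peak, the highest pooled signal was 1.384 to 5.68 times the lowest, with a median of 3.12. Of the 19 sets, 12 had at least 1 copy without a pooled peak, which the ratio leaves out. Over all 43 sets, 33 copies lacked one.

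The largest set, 18 autosomal glycine genes identical to K04C2.t1, had 10 on thresholded peaks and pooled signals of 26.2 to 85.6. Its 17 genes with a pooled peak lay on 12 peaks, since neighbouring copies share some. In the 15 lysine genes identical to B0350.t1, 8 were on thresholded peaks, from 102.1 at B0350.t1 to 22.89 at Y105C5A.t1, and C17D12.t1 had no pooled peak. The set of T23F1.t1 had 9 autosomal lysine genes, of which T23F1.t1 (100.9), C09B9.t1 (76.11), F49C5.t4 (74.07) and K04C2.t3 (67.29) were on thresholded peaks. Its other genes had 48.66 at F18C5.t1, 40.05 at ZK994.t2, 31 at ZK994.t1 and no pooled peak at W07G4.t1 and Y70C5A.t1. For T23F1.t1 and ZK994.t1, the highest and lowest pooled signals of the set, the order was the same in each replicate list. They had 45.26 against 14.82 in replicate 1 and 61.04 against 19.1 in replicate 2. For C09B9.t1 and F49C5.t4 the order was reversed, with 41.76 against 27.58 in replicate 1 and 31.97 against 48.14 in replicate 2.

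The set of the proline gene T23F1.t2 spanned 18.25 to 100.9 over 11 autosomal genes, with F02H6.t1 (54.42) the only other one on a thresholded peak. The alanine set of F15B9.t1 had 4 of 8 genes on thresholded peaks, from 79.39 at F15B9.t1 to 19.27 at C52E12.t3, where replicates 1 and 2 had 8.568 and 11.22. The threonine set of C16C8.t2 also had 4 of 8, from 79.67 at C16C8.t2 to 25.53 at F11H8.t1, with no pooled peak at F36D4.t2. The peak at C16C8.t2 is the one shared with the lysine gene C16C8.t1. The asparagine set of W06D4.t1 had 1 of 13, with 18.22 to 52.26, and the serine set of F02E11.t1 and the glutamine set of Y49E10.t1 had none of 6 each. The sources used here do not state how the authors treated reads that match several copies, so a signal at 1 copy may include reads from others. In windows of the gene and 200 bp to each side, a median of 87.36% of the 30-base stretches occurred at that place only. Across the 270 genes with a pooled peak the Spearman coefficient of pooled signal was 0.02528 with that percentage and 0.1019 with the number of identical copies. Both coefficients leave out the 66 genes with no pooled peak. Those genes ran from 22.03% of such stretches at T22A3.t3 to 100%, as at T13B5.t2, so the coefficients do not describe whether a gene had a peak.

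**Figure D4:**
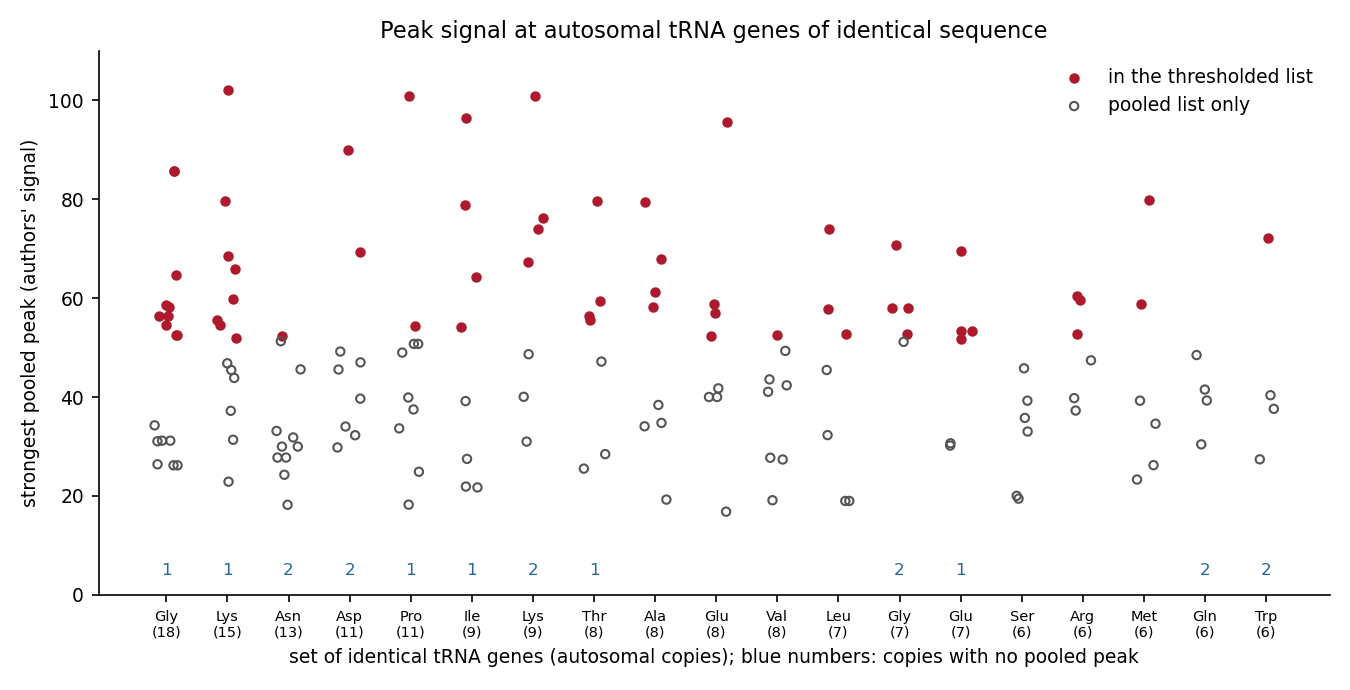
Authors' pooled signal (y axis) at each autosomal copy of the 19 sets of identical tRNA genes with at least 6 autosomal copies (x axis, isotype and number of copies). Filled points are genes of the thresholded list, open points genes in the pooled list only, and blue numbers count copies with no pooled peak; 17 of the 19 sets have filled and open points together.

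The share of genes with a peak was lower in classes of genes less like any other tRNA gene. By the number of single-base differences (substitutions, insertions or deletions) to the closest other nuclear tRNA gene, 87 of 250 genes with an identical copy lay on a thresholded peak (34.8%, interval 28.91 to 41.06%). Of genes with 1 to 3 differences 12 of 51 did (23.53%, interval 12.79 to 37.49%), of those with 4 to 10 differences 2 of 22 (9.091%, interval 1.121 to 29.16%), and of those with 11 or more 0 of 13 (interval 0 to 24.71%). In the pooled list the shares were 86.4%, 78.43%, 54.55% and 15.38%. For all nuclear genes, counted over their whole length, the shares were 2.21% in the thresholded and 27.1% in the pooled list. At protein-coding gene starts they were 0.8012% and 18.7%. The 13 most distant genes were near the shares at such starts in both lists, which is not a result about them. Each replicate list held a peak at 3 of these 13, and 8 of the 13 had no peak in any list. In the replicate 1 and 2 lists, all nuclear genes had 33.5% and 32.4%, and protein-coding starts 22.66% and 22.55%. The top peaks of replicate 1 gave 57 of 250, 10 of 51, 1 of 22 and 0 of 13, and those of replicate 2 gave 78, 12, 2 and 0. The classes were drawn after the values had been seen, and the trend was not tested.

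Closeness to other tRNA genes moved with this order, since all 13 genes with 11 or more differences had no tRNA gene within 1000 bp. Among genes with no such neighbour the thresholded shares were 30.06% of 163, 27.5% of 40, 10.53% of 19 and 0 of 13. The pooled shares in the same genes were 82.21%, 80%, 47.37% and 15.38%. The 2 genes with 4 or more differences and a thresholded peak were C14B9.t2 (4 differences, 93.6) and the glutamine gene B0228.t1 (6 differences, 60.75). Of the 13 most distant genes, K11H12.t1 with 34 differences was 1 of 2 in the pooled list. T13B5.t2 with 24 and Y113G7B.t1 with 21 had no peak in any list, although T13B5.t2 holds the B box letters.

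The number of identical copies gave a similar order. Single-copy genes lay on a thresholded peak in 14 of 86 cases (16.28%, interval 9.196 to 25.8%), genes with 2 to 9 identical copies in 28 of 87 (32.18%) and genes with 10 or more in 59 of 163 (36.2%, interval 28.83 to 44.08%). For genes with 2 to 9 copies the share was 17.24% without replicate 2 and 31.03% without replicate 1. Of the 14 genes that had no repeated 30-base stretch, none lay on a thresholded peak (interval 0 to 23.16%) and 4 had a pooled peak (28.57%). All nuclear genes had 2.21% and 27.1%, and protein-coding starts 0.8012% and 18.7%. These 14 genes were therefore near the background, which is not a result about them. Reads that could have come from other copies move with the order by copy number, and their part in it was not tested.

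**Figure D5:**
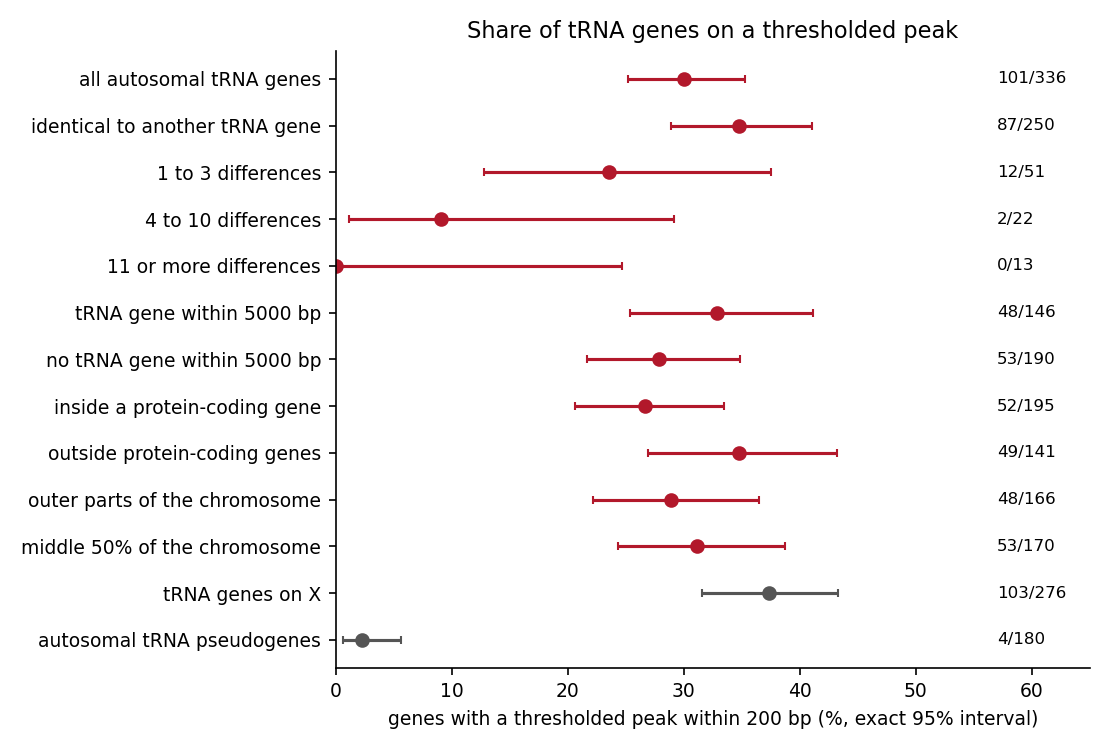
Share of tRNA genes with a thresholded peak within 200 bp (x axis, percent) for classes of autosomal tRNA genes (red) and, below them, tRNA genes on X and autosomal tRNA pseudogenes (grey), with the number of genes at the right. Points are shares and bars exact 95% intervals; the shares fall in the order 0, 1 to 3, 4 to 10 and 11 or more differences, with overlapping intervals between neighbouring classes.

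Pseudogenes of tRNA, copies that the annotation marks as not functional, had fewer peaks than the genes. On the autosomes 101 of 336 genes (30.06%) and 4 of 180 pseudogenes (2.222%, interval 0.6087 to 5.592%) lay on a thresholded peak. Pooled peaks were at 80.36% of the genes and at 18.89% of the pseudogenes (interval 13.45 to 25.38%). All nuclear genes, counted over their whole length, had 27.1%. Protein-coding starts, which are closer in size, had 18.7%, close to the share of the pseudogenes. The pseudogenes differ by 5 to 29 bases from the closest tRNA gene (median 22), and the single-copy genes by 1 to 34 (median 2). The B box letters were present in 71.73% of the genes and 74.44% of the pseudogenes. The 4 pseudogenes on thresholded peaks were D1046.t1 (139.1, above every autosomal tRNA gene), F19H8.t1 (80.18), T08B2.t1 (72.51) and C52E12.t1 (69). The first 3 have a snoRNA gene within 200 bp (D1046.6, F19H8.6 and T08B2.13), and C52E12.t1 does not.

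Promoter letters inside the gene were searched on its strand. The B box letters GTTCGANNC were found in 241 of 336 autosomal genes (71.73%) and 200 of 276 X genes (72.46%). Genes with the match lay on a thresholded peak in 32.78% of cases (79 of 241, interval 26.89 to 39.1%) and genes without it in 23.16% (22 of 95, interval 15.12 to 32.94%). No cysteine or aspartate gene holds these exact letters, and 5 of 6 cysteine genes were on thresholded peaks. The strong gene F44A2.t1 printed above lacks them too. The proline gene T23F1.t2 also lacks them, but its peak is shared with the lysine gene T23F1.t1, which holds them. The summit of that peak lay inside the lysine gene in the pooled and replicate 1 lists, and between the 2 genes in replicate 2. A gene without the match need not lack a B box, because no variant of the letters was sought. In the printed sequences, F44A2.t1 and T23F1.t2 hold GTTCAA where the search required GTTCGA. The letters TGGCNNAGT of an A box, which do not overlap the other match, were found in 38 autosomal genes (11.31%) and 23 X genes (8.333%). Those 38 had 12 genes on thresholded peaks (31.58%) and the 298 without it had 89 (29.87%). A run of TTTT lay within the 30 bp after the gene in 332 of 336 autosomal genes (98.81%) and 273 of 276 X genes (98.91%).

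Among the autosomes, II and V stood furthest apart. On II 24 of 57 genes had a thresholded peak (42.11%, interval 29.14 to 55.92%) and on V 14 of 78 (17.95%, interval 10.17 to 28.28%), while chromosomes I, III and IV had 19 of 66, 19 of 64 and 25 of 71. The high count on II was not in both replicates: it was 12 genes without replicate 2 and 24 without replicate 1. On V the counts were 10 and 15. Median pooled signals were 48.66 on II and 38.46 on V. The strongest of these tRNA genes, F57F5.t1, nevertheless lies on V, as do T23F1.t1, T23F1.t2 and F44A2.t1.

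The outer parts and the middle of the chromosomes had overlapping shares. With the middle 50% of each chromosome taken as its centre, 48 of 166 genes in the outer parts (28.92%, interval 22.15 to 36.45%) and 53 of 170 in the centre (31.18%, interval 24.3 to 38.72%) lay on thresholded peaks. Without replicate 2 the share in the outer parts was 17.47% and in the centre 22.94%. The outer parts of V had 3 of 32 genes on thresholded peaks, and those of II had 14 of 28, where the top peaks of replicate 1 gave 5 and those of replicate 2 gave 16. Pooled peaks were at 83.73% of genes in the outer parts and at 77.06% in the centre.

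Genes linked to another tRNA gene within 5000 bp and lone genes had overlapping shares on thresholded peaks. Of 146 clustered genes 48 did (32.88%, interval 25.33 to 41.13%), and of 190 lone genes 53 (27.89%, interval 21.65 to 34.85%). Without replicate 2 the clustered genes gave 23.29% and the lone ones 17.89%, and without replicate 1 they gave 26.71% and 27.89%, the opposite order. The 146 genes form 59 clusters, 42 of them pairs, and 33 clusters hold genes of 1 isotype. In 14 clusters every gene was on a thresholded peak, in 32 none was, and in 13 some were. The 24 genes that share a thresholded peak are all clustered, so each of those 12 peaks counts for 2 clustered genes. Genes on a shared peak agree by construction, as at T23F1 and C16C8, so these counts do not show agreement between separate peaks.

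The largest cluster had 5 aspartate genes within 8328 bp, from Y54G2A.t1 to Y54G2A.t4 on IV (2800099 to 2808426). Y54G2A.t3 had a pooled signal of 74.91 (33.85 in replicate 1 and 42.14 in replicate 2), Y54G2A.t5 45.57, Y54G2A.t2 41.97 and Y54G2A.t4 30.7, and Y54G2A.t1 had 8.811 in replicate 2 only. In the mixed cluster from F49C5.t1 to F49C5.t2 on II, a lysine and a leucine gene shared a peak of 74.07, the alanine gene F49C5.t2 had 34.77 and the tryptophan gene F49C5.t1 had no pooled peak. In the cluster from F15D3.t1 to C17D12.t3 on chromosome I, the lysine gene F15D3.t1 had 68.49, C17D12.t2 and the leucine gene C17D12.t3 shared 45.47, and C17D12.t1 had 10.69 in replicate 1 only. All 3 genes at K04C2 on III were on thresholded peaks, while none of 4 asparagine genes at F57G8 on V was, with 27.77 to 29.99 pooled. Neighbouring genes share peaks in both clusters. In windows of the gene and 200 bp to each side, 45.05 to 47.97% of 30-base stretches were unique at F57G8 and 76.75 to 86.94% at K04C2.

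Many of the genes lie inside protein-coding genes, mostly in introns. Of 195 such genes 52 had a thresholded peak (26.67%, interval 20.6 to 33.46%), and of 141 outside 49 (34.75%, interval 26.94 to 43.22%). Without replicate 2 the share inside was 19.49% and outside 21.28%. Genes on the strand of their host had 29 of 116 (25%) and those on the opposite strand 23 of 79 (29.11%). Of 190 genes in introns 50 were on thresholded peaks, and of 5 that overlap exons 2 were, K02D7.t1 among them. Of genes with the start of a protein-coding gene within 500 bp, 25 of 75 (33.33%) were on thresholded peaks, and of the others 76 of 261 (29.12%). Pooled peaks were at 80% of genes inside and 80.85% outside protein-coding genes.

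No list held a peak at 42 of the 336 genes. Isotypes with 3 or more of them were glycine (6 of 35 genes), serine (5 of 21), lysine (4 of 28), histidine and tyrosine (3 of 11 each), isoleucine (3 of 16) and proline (3 of 22). None of the 6 cysteine or 12 glutamine genes was among them, and 12 of the 78 genes on V were. These counts are small, and differences between classes were not tested. Of the 42, 17 have an identical copy elsewhere, 7 differ by 1 to 3 bases from the closest tRNA gene, 10 by 4 to 10 and 8 by 11 or more. Of the 2 genes with no isotype in the annotation, DY3.t2 on chromosome I had 12.91 in replicate 2 only and C08E8.t3 on V had none.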

How the data were processed

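Peak lists came from 1 group of 2 biological replicates, each called with a control, per the labels and the deposited notes. The authors deposited the lists in the builds ce10 and ce11: 1 for every replicate, 1 for the pooled reads and 1 thresholded on the irreproducible discovery rate. The 4 ce11 lists were used, and the ce10 lists were not used here. The signal of a peak and its summit position are as deposited. The aligner, caller, versions, signal scaling, threshold and treatment of reads matching several copies are not given in the sources used here. Depth is unknown.

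Gene positions, biotypes, isotypes and sequences came from RefSeq WBcel235. A gene had a peak if a listed peak lay within 200 bp of it, and the strongest by signal was kept. The annotation gives no anticodon, so isotypes were not divided further. Clusters link genes within 5000 bp. Differences between sequences are edit distances from edlib 1.3.9.post1; Python 3.11.15, numpy 2.4.6, pandas 2.3.3, scipy 1.17.1 and matplotlib 3.10.9 were used. The search for the strongest peak was tested on simulated peaks. Alternatives changed the distance, list, cluster link, centre, copies and replicate.

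Members, lists and classes were chosen with earlier results of these data known. Named genes are the 12 strongest, the strongest of each isotype, the 3 on either side of the list edge, the 4 with the largest rank difference between replicates, the first and last genes of the 3 largest clusters (ties broken by the strongest gene) and the sets with most autosomal copies. Other genes, among them the pseudogenes, the sup, rtw and rte genes, further cluster and set members and the most distant sequences, and the classes of sequence difference, were chosen after their values were seen.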

Additional observations from a re-analysis of the deposited data

How the results depend on the processing

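The shares over all autosomal genes were recomputed with overlap only and with 500 and 1000 bp, and some of them by the summit within 200 bp, over genes without a tRNA neighbour within 1000 bp, or with each set of identical genes counted as 1. The thresholded shares over all genes and by position, cluster and host were recomputed with the stronger 50% of the thresholded peaks and on the top peaks of 1 replicate. Clusters were also linked within 1000 and 20000 bp, the centre narrowed and hosts limited to the same strand. Shares by isotype, chromosome, copy number, sequence difference and B box letters were recomputed only on the top peaks of each replicate, apart from the sequence differences in genes without a tRNA neighbour. Of 56 recomputed values 35 stayed within the interval of the reported value and 21 moved outside it. Counting each identical set as 1, with a peak if any copy had it, gave 35.77% for the thresholded, 73.72% for the pooled and 64.23% for both replicate lists. Within 1000 bp the pooled share was 86.61% and that in both replicate lists 81.55%, and within 500 bp the share in both replicate lists was 76.19%. Genes with no other tRNA gene within 1000 bp had a pooled share of 75.32%. Among the stronger 50% of thresholded peaks, which are fewer by construction, the share was 11.31% for all genes, 9.036% in outer parts, 13.53% in centres, 9.589% for clustered, 12.63% for lone, 11.28% for host and 11.35% for outside genes.

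With 1 replicate left out, the thresholded share ranged from 20.24 to 27.38% for all genes, from 17.47 to 27.11% in outer parts and from 22.94 to 27.65% in centres. It ranged from 23.29 to 26.71% for clustered and 17.89 to 27.89% for lone genes, and from 19.49 to 26.15% inside and 21.28 to 29.08% outside protein-coding genes. The lower value came without replicate 2 in each of these. Clustered genes had the lower share than lone genes among the stronger 50% of thresholded peaks and without replicate 1, and the higher share without replicate 2 and with links of 1000 or 20000 bp. The cause of these moves was not tested. No paired analysis was possible because there is 1 group. Counting intervals, unknown depth and reads shared between copies limit every share.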
